A study of Bos taurus with 8 samples.

Results

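Growth hormone, prolactin, leptin and many cytokines act on the liver through receptors that have no enzyme activity of their own. A bound receptor activates Janus kinases, which phosphorylate STAT proteins, and these enter the nucleus and switch on target genes. Some of those targets, the SOCS proteins and CISH, return to the receptor and restrain it, so that their mRNA is often read as a sign of recent signalling. In the liver, growth hormone acting through its receptor and STAT5 drives the synthesis of the circulating growth factor IGF1, and cytokines of the IL-6 family acting through STAT3 drive the acute phase proteins.

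The genes described here are 10 components of this route, namely the receptors GHR, PRLR and LEPR, the kinase JAK2, the transcription factors STAT3, STAT5A and STAT5B, and the feedback genes SOCS2, SOCS3 and CISH. They were found on the array by the RefSeq accession of each probe. By this rule 9 of the 10 genes had a probe, 19 probes in all of 43637 on the array, and JAK2, with 0 matched probes, was not analysed here. Detection required a signal well above background on 4 or more of the 8 arrays, and 18 of the 19 probes and 8 of the 9 genes were detected, among 10861 detected genes in the whole series. SOCS3 was the gene that was not. Each gene is given by the brightest of its detected probes, the one of highest mean signal, and values are quantile-normalized log2 signals throughout.

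Livers came from Japanese Black cattle fetuses at 8.5 months of gestation (day 260 ± 8.3), conceived with male-sorted semen of a single sire. Dams of the low nutrition (LN) group received 60% of their nutritional requirement and dams of the high nutrition (HN) group 120%. That requirement was calculated for body weight before pregnancy, and the paper cites a higher recommended level for late gestation. No group was fed at the requirement itself. The arrays carried LN fetuses L5, L6, L8 and L9 and HN fetuses L1, L2, L3 and L10, and by the study's methods these were the lightest fetuses of the LN group and the heaviest of the HN group. The series is described in general terms as using RNA pooled by group, but each sample label names 1 fetus, and each array is taken here as 1 fetus. The LN arrays shared 1 slide and the HN arrays another, each with its own scan, so diet cannot be told apart from slide or scan. Between 32635 and 34369 spots were well above background on each array, and all 9 hepatocyte markers with a matched probe were detected, with summed levels (log2 of the sum of their signals) of 20.94 to 21.01 in the LN group and 20.90 to 20.98 in the HN group.

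The comparison asked whether the mRNA of this signalling route differed in the fetal liver between the diets. By limma, 0 of the 8 detected genes passed an adjusted p of 0.05, and the share called over all 10861 detected genes was 0%. At an unadjusted limma p of 0.05 the count was 0 of 8, against 6.05% of all detected genes, and 0 of 8 had groups without overlap, against 4.14% of all detected genes. PRLR and CISH differed by more than 0.32 on the log2 scale, 2 of 8 where the share over all detected genes was 16.4%. The LN mean was the higher for 4 genes and the lower for the other 4, with a median difference of 0.027 on the log2 scale beside 0.0075 over all detected genes. An exact permutation test of 4 fetuses against 4 cannot go below p = 0.0286, and precision is limited by there being only 8 arrays.

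**Figure D1:**
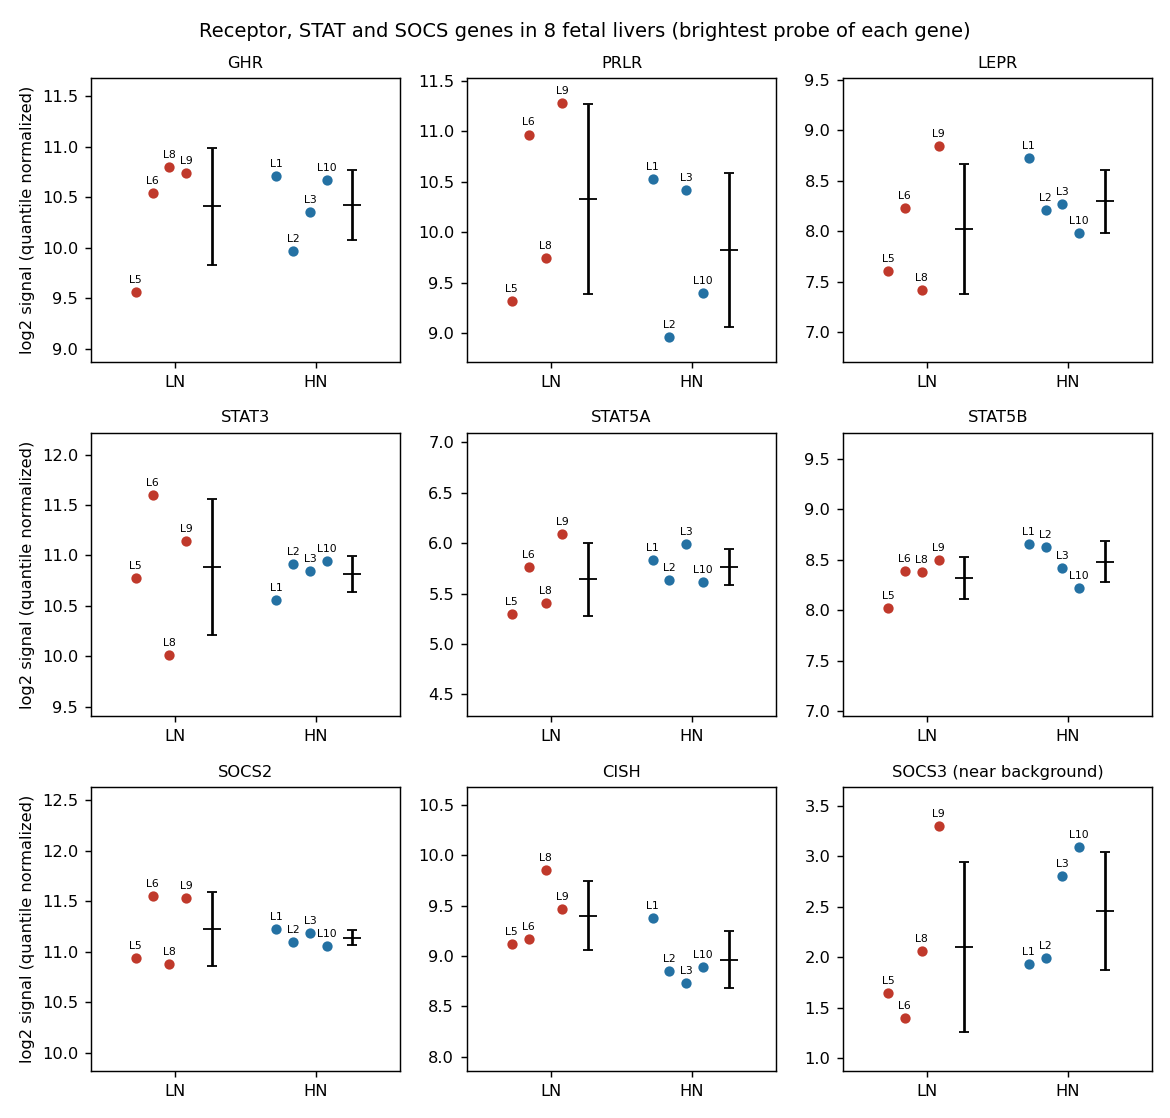
Quantile-normalized log2 signal of the brightest probe of each gene (vertical axis) in the LN and HN groups; each point is 1 fetus with its label, and the bar is the mean ± SD of 4 fetuses. The groups overlap in every panel, PRLR spreads from 8.96 to 11.28, CISH is 9.12 to 9.85 in LN and 8.73 to 9.38 in HN, and SOCS3 lies near background.

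GHR (NM_176608), the growth hormone receptor, had the same mean signal in both groups to within 0.02 on the log2 scale. The LN fetuses L5, L6, L8 and L9 read 9.56, 10.54, 10.80 and 10.74. The HN fetuses L1, L2, L3 and L10 read 10.71, 9.97, 10.36 and 10.67. LN fetus L5 was the lowest of all 8, and the other LN fetuses lay within or just above the range of the HN group. The means were 10.41 ± 0.58 and 10.43 ± 0.34 (SD, n = 4 each), and the difference was -0.016 (standard error, SE, 0.29, p = 0.971 by exact permutation, adjusted p = 0.995 by limma). Its 95% interval ran from -0.68 to 0.65, so a change of either sign up to about that size is not excluded by these fetuses. Without LN fetus L5 the difference was 0.27, and without HN fetus L2 it was -0.17.

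Over the 8 fetuses, the genes whose pattern was most like that of GHR among 10860 others were AZGP1 (Pearson's r = 0.94), GLYAT (0.94), KANSL3 (0.93), RASL10A (0.92) and MED22 (0.91), with Spearman's rho between 0.57 and 0.98. GLYAT encodes a mitochondrial glycine conjugating enzyme, and KANSL3 and MED22 belong to a histone acetyltransferase complex and to Mediator. Without L5 and L2, the fetuses farthest from the median of GHR, r fell to 0.17 for RASL10A and was 0.71 to 0.89 for the others. These genes were picked as the highest of all, so the coefficients are a description and carry no test.

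PRLR, the prolactin receptor, varied more between fetuses than any other of the 8 genes. Its brightest probe (NM_174155) read 9.32, 10.97, 9.75 and 11.28 in LN fetuses L5, L6, L8 and L9. It read 10.52, 8.96, 10.42 and 9.40 in HN fetuses L1, L2, L3 and L10. Both groups held high and low fetuses, and the highest, L9, was 4.99-fold above the lowest, L2. The SD within groups was 0.86, larger than that of 97.0% of detected genes, whose median was 0.23. A second probe, designed on another transcript of the gene (NM_001039726), gave 5.97, 7.74, 6.32 and 8.15 in the LN group and 7.15, 5.60, 7.01 and 6.27 in the HN group. The 2 probes put the fetuses in the same order, with r = 0.99 between them. The LN mean was higher by 0.50 (SE 0.51, 95% interval -0.66 to 1.66, p = 0.429 by exact permutation, adjusted p = 0.887 by limma), and by 0.54 (SE 0.54) with the second probe. Leaving out 1 fetus moved the difference from 0.19 (without L9) to 0.84 (without L5).

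LEPR (NM_001012285), the leptin receptor, was measured with 4 probes. The brightest read 7.61, 8.23, 7.42 and 8.84 in the LN group and 8.73, 8.21, 8.27 and 7.98 in the HN group, in the same order of fetuses. LN fetuses L8 and L5 were the lowest and LN fetus L9 the highest, so the LN values enclosed those of the HN group. The LN mean was lower by 0.27 on the log2 scale (a difference of -0.27, SE 0.31, 95% interval -0.98 to 0.43, p = 0.543 by exact permutation, adjusted p = 0.904 by limma). The other 3 probes differed by -0.21, -0.66 and -0.85, all in the same direction, and correlated with the brightest at r = 0.92, 0.87 and 0.94. The last of them was well above background in 1 of 4 LN and 3 of 4 HN fetuses, so its difference rests on dim spots. Leaving out L8 brought the difference of the brightest probe to -0.07, and leaving out L9 to -0.55.

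STAT3 (NM_001012671), the factor that carries IL-6 and leptin signals, had 5 detected probes that differed in pattern. The brightest read 10.78, 11.60, 10.02 and 11.15 in the LN group and 10.56, 10.92, 10.84 and 10.95 in the HN group. The HN fetuses lay close together, with L5 among them, L6 and L9 above them and L8 below. The difference was 0.07 (SE 0.30, p = 0.83 by exact permutation, adjusted p = 0.979 by limma), and it changed sign when L6, L9 or L1 was left out, to -0.17, -0.02 and -0.02. The other probes differed by -0.34, -0.18, -0.02 and -0.01, and their correlations with the brightest ranged from -0.0081 to 0.51. The probe at -0.34 had a standard error of 0.18, an exact permutation p of 0.143 and a limma adjusted p of 0.794. As the mean over its probes, STAT3 differed by -0.10.

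STAT5A and STAT5B, near-identical factors that carry growth hormone and prolactin signals, lie side by side in the reference assembly, with a tRNA gene between them and STAT3 next to STAT5A. How far their probes can share signal was not tested, as probe sequences were not used here. STAT5B (NM_174617) read 8.02, 8.39, 8.38 and 8.50 in the LN group and 8.66, 8.63, 8.42 and 8.23 in the HN group. L5 was the lowest and L1 and L2 the highest, with the other fetuses mixed between them. The difference was -0.16 (SE 0.15, 95% interval -0.51 to 0.18, p = 0.286 by exact permutation, adjusted p = 0.879 by limma), and without L5 it was -0.06. The brightest probe of STAT5A (NM_001012673) read 5.30, 5.76, 5.41 and 6.09 in the LN group and 5.83, 5.63, 5.99 and 5.61 in the HN group. L5 and L8 were the lowest and L9 the highest, all of them LN fetuses. The difference was -0.12 (SE 0.19, p = 0.571 by exact permutation, adjusted p = 0.932 by limma). It was -0.01 without L5, -0.27 without L9 and -0.29 with scaling to the 75th percentile. The other 2 probes of STAT5A were dimmer, well above background on 5 and 4 arrays, and ran opposite to the brightest over the fetuses, with r = -0.71 and -0.56. Their differences were -0.08 and 0.04.

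Among the feedback genes, CISH (NM_001046586), a STAT5 target that restrains growth hormone and cytokine receptors, came nearest to separating the groups. It read 9.12, 9.16, 9.85 and 9.47 in LN fetuses L5, L6, L8 and L9. It read 9.38, 8.86, 8.73 and 8.89 in HN fetuses L1, L2, L3 and L10. L1 lay inside the LN range, and the other HN fetuses lay below every LN fetus. The means were 9.40 ± 0.34 and 8.96 ± 0.28 (SD, n = 4 each). The difference of 0.44 (SE 0.21, 95% interval -0.03 to 0.90) had an exact permutation p of 0.0857, an unadjusted limma p of 0.0638 and a limma adjusted p of 0.787. Without L1 the groups did not overlap and the difference was 0.57, past an unadjusted limma p of 0.05 but with an adjusted p of 0.891 by limma. Without L5 it was 0.53, likewise past the unadjusted threshold (adjusted p = 0.877 by limma), and without L8 it was 0.29 (adjusted p = 0.802 by limma). In these bulk samples, a change in the number of cells of a type and a change in RNA per cell cannot be told apart.

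Markers of erythroid cells and neutrophils also had higher means in the LN group, whereas those of lymphocytes and macrophages were mostly lower. All 8 detected erythroid markers were higher by 0.86 to 1.83, with summed levels of 14.87 to 18.20 in LN and 13.47 to 16.22 in HN, while the erythroid genes SLC4A1, KLF1, EPB42 and HEMGN were not detected. Of 8 detected neutrophil markers 7 were higher, with summed levels of 13.05 to 14.58 in LN and 12.27 to 13.49 in HN. MPO, ELANE and CATHL4, 3 of the 8, had groups without overlap and an unadjusted limma p past 0.05, where the shares over all detected genes were 4.14% and 6.05%. All 7 detected lymphocyte markers were lower, with a median of -0.18 and summed levels of 12.52 to 12.96 in LN and 12.72 to 13.16 in HN (2 of 7 past an unadjusted limma p of 0.05 and 1 of 7 without overlap, beside the same shares), and so were 8 of 9 macrophage markers, with a median of -0.09. None of these markers passed an adjusted p of 0.05, and their part in the CISH difference was not tested.

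SOCS2 (NM_177523), the feedback gene known to limit growth hormone signalling, read 10.94, 11.55, 10.88 and 11.53 in the LN group and 11.23, 11.10, 11.18 and 11.06 in the HN group. The LN fetuses formed a high pair, L6 and L9, and a low pair, L5 and L8, and the HN fetuses lay between the pairs. The SD was 0.37 in LN and 0.078 in HN, and the equality of these spreads was not tested. The difference of means was 0.08 (SE 0.18, 95% interval -0.33 to 0.49, p = 0.629 by exact permutation, adjusted p = 0.951 by limma). It was -0.03 without L6 and -0.02 without L9. SOCS3 (NM_174466), the feedback gene of IL-6 and leptin signalling, read 1.65, 1.40, 2.07 and 3.30 in the LN group and 1.93, 1.99, 2.81 and 3.09 in the HN group. It was well above background in L9 alone, so no fold and no test are given.

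**Figure D2:**
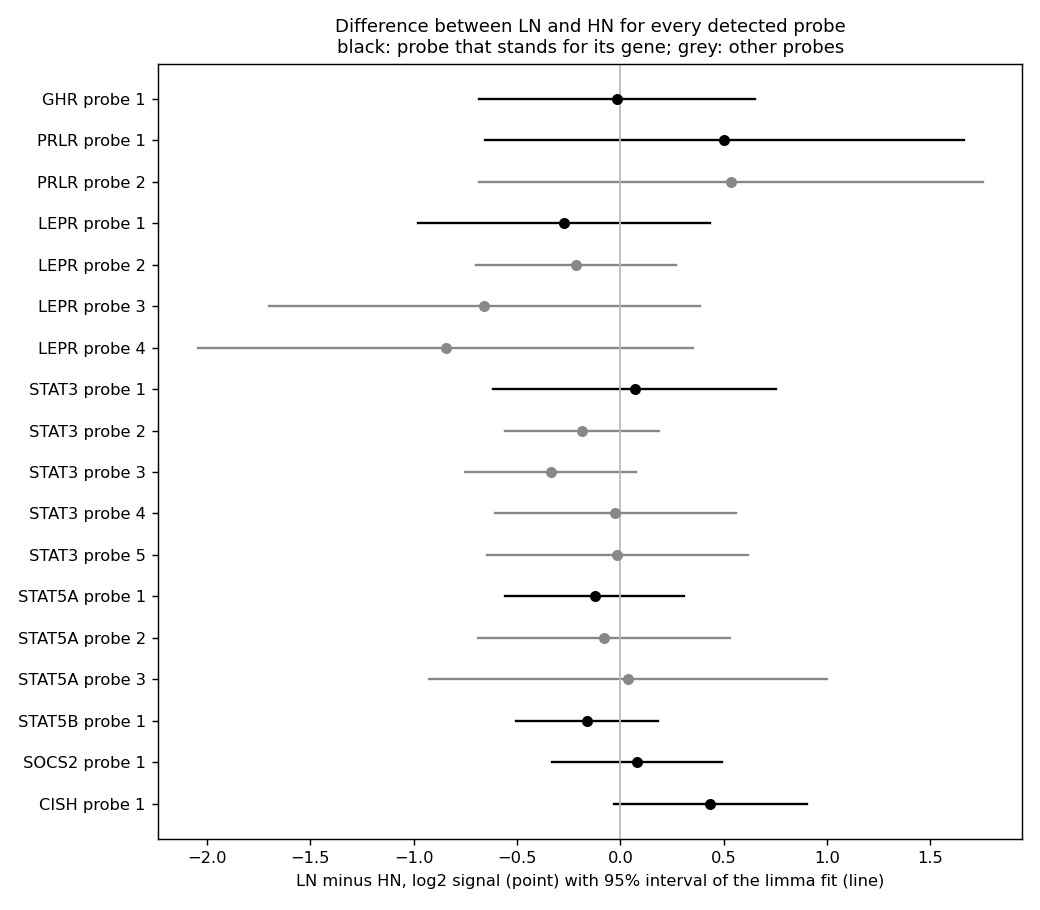
LN minus HN difference in log2 signal (horizontal axis) for each of the 18 detected probes, with the 95% interval of the limma fit; black marks the brightest probe of a gene and grey its other probes. Every interval spans 0, the CISH interval (-0.03 to 0.90) reaching least far below it among the brightest probes, and LEPR probes lie at -0.21 to -0.85.

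How the members varied together over the fetuses was examined pair by pair. Of 28 pairs among the 8 detected genes, 22 had a positive r and 6 had an exact permutation p of at most 0.05, and 0 pairs passed by r after adjustment over the pairs. By rank LEPR and STAT5A did pass. LEPR and STAT5A were the closest pair, with r = 0.885 (exact permutation p = 0.00556, adjusted 0.124) and rho = 0.952 (exact permutation p = 0.00114, adjusted 0.0319). For this pair r was 0.79 without L8 and L9, 0.88 on deviations from the group means, and 0.85 on signals before normalization between arrays. It rests on the brightest STAT5A probe, since the other 2 STAT5A probes gave r = -0.40 with LEPR (exact permutation p = 0.317 and 0.326, rho = -0.45 for both). PRLR and SOCS2 followed, with r = 0.843 (exact permutation p = 0.00888, adjusted 0.124) and rho = 0.762 (exact permutation p = 0.0368, adjusted 0.179). Their r was 0.88 without L9 and L2 and 0.84 on deviations from the group means, but 0.28 before normalization. The other 4 pairs had r between 0.763 (PRLR and STAT5A, exact permutation p = 0.0312, adjusted 0.145) and 0.783 (STAT5A and SOCS2, exact permutation p = 0.0222, adjusted 0.129), with rho between 0.667 (STAT3 and SOCS2, exact permutation p = 0.0831, adjusted 0.233) and 0.857 (LEPR and SOCS2, exact permutation p = 0.0107, adjusted 0.150). Without the fetuses farthest from the median, r was 0.46 (STAT3 and SOCS2) to 0.76 (PRLR and STAT5A). Before normalization r was 0.70 for LEPR and SOCS2, 0.50 for STAT3 and SOCS2, 0.45 for STAT5A and SOCS2 and 0.13 for PRLR and STAT5A. PRLR and STAT5A, STAT5A and SOCS2, and STAT3 and SOCS2 likewise rest on the brightest STAT5A or STAT3 probe. Other probes correlated with the brightest at r = -0.71 and -0.56 for STAT5A and -0.0081 to 0.51 for STAT3. Those pairs were not examined with the other probes.

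The brightness of an array, taken as the 75th percentile of its log2 signals before normalization, ran from 9.0 to 9.72 and moved with several of these genes. Normalized SOCS2 was lower on brighter arrays (r = -0.766, exact permutation p = 0.0284; rho = -0.619, exact permutation p = 0.115), as was PRLR (r = -0.725, exact permutation p = 0.0498; rho = -0.738, exact permutation p = 0.0458). Over the family of 9 genes tested, IGF1 included, the lowest adjusted p of r was 0.184. Without L5 and L6, the arrays farthest from the median brightness, r was -0.58 for SOCS2 and -0.59 for PRLR. Values for GHR, STAT5A, STAT3 and LEPR were -0.65, -0.65, -0.61 and -0.44, and those for STAT5B and CISH were -0.10 and 0.0015. Over all detected genes the median r with brightness was 0.033, and 10.05% of genes lay below -0.7. On the deviation of each gene from its group means, r was -0.76 for SOCS2 and -0.72 for PRLR. The part of brightness in the correlations between genes was not tested further than by the values before normalization.

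**Figure D3:**
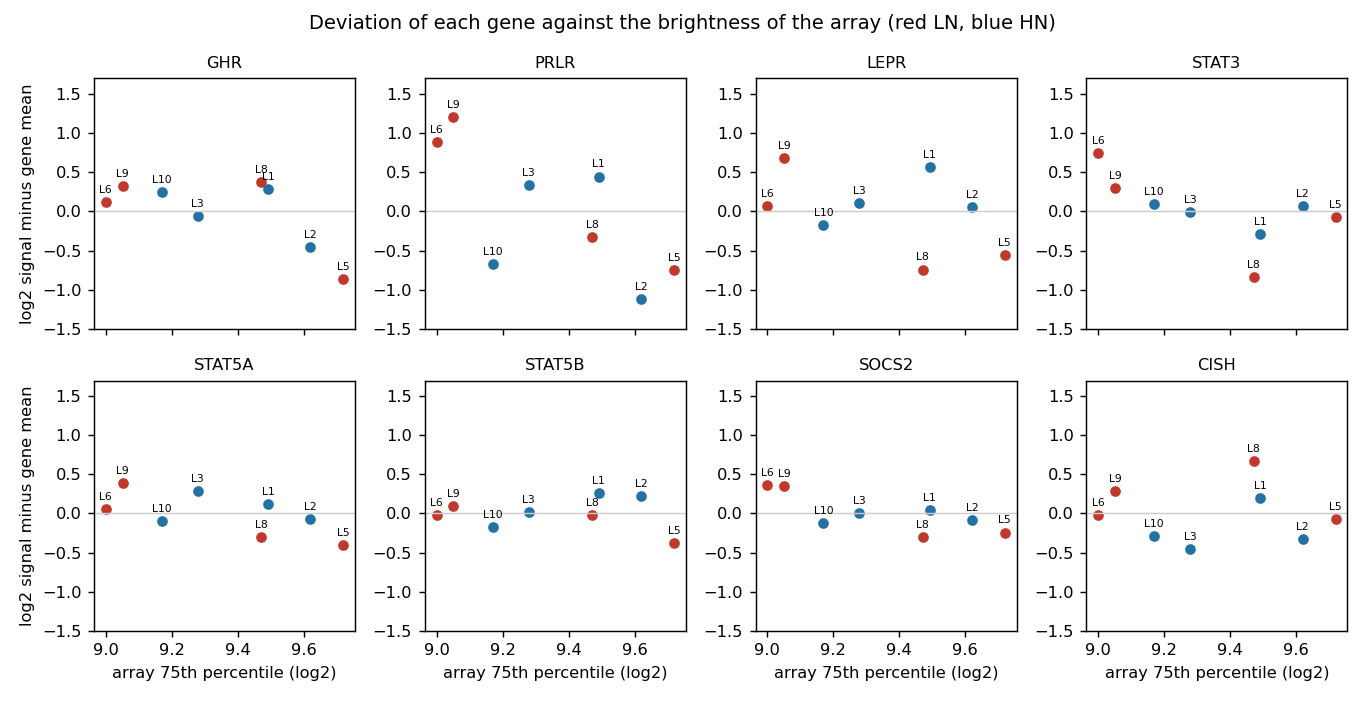
Log2 signal of each gene minus its mean over 8 fetuses (vertical axis) against the 75th percentile of the log2 signals of the array before normalization (horizontal axis), LN in red and HN in blue. SOCS2 and PRLR decline from left to right (r = -0.77 and -0.72), whereas CISH shows no slope (r = 0.0015).

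Other genes of the route were taken from lists of ligands, receptors, kinases, STATs, SOCS proteins, further regulators and targets. Apart from the members, 119 genes were listed, 92 had a matched probe and 75 were detected. By limma 0 of the 75 passed an adjusted p of 0.05, 31 had a higher mean in LN and 44 a lower one, and their median difference was -0.046 beside 0.0075 over all detected genes. At an unadjusted limma p of 0.05 there were 2 genes, IL22RA1 and STAM, where the share over all detected genes was 6.05%. Groups did not overlap for 2 genes, JAK1 and STAM, where that share was 4.14%.

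Few ligand genes were detected in these livers. Of 18 ligand genes with a matched probe, 5 were detected, and PRL, LEP, IL6, OSM, CSF3, IL2, IL4, IL7, IL22 and IFNG were well above background on 0 arrays. Of the 5, EPO, the hormone of red cell formation that the fetal liver makes, differed by 0.52 (SE 0.50) with values of 4.71 to 6.98 in LN and 4.91 to 6.50 in HN. That difference was 0.25 without L5 and 1.00 without L6, and 0.26 with normexp. GH1, normally a pituitary hormone, was dim at 2.51 to 3.43 and well above background in 3 LN and 2 HN fetuses, and its means differed by 0.36, or by 0.22 without L10. THPO, the platelet growth factor, differed by -0.01 and IL10 by -0.17, and IL15 differed by -0.32 with 1 LN and 4 HN fetuses well above background. Without L8 the IL10 difference was -0.04, and without L6 that of IL15 was -0.57, past an unadjusted limma p of 0.05. None of the 5 passed an adjusted p.

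Of 23 detected receptors, 11 had a higher and 12 a lower mean in LN, with a median of -0.016. The members GHR, PRLR and LEPR are among the 23. After PRLR, OSMR, the oncostatin M receptor, had the largest positive difference, 0.28 (SE 0.24), but 0.10 with scaling to the 75th percentile, 0.11 without L6 and 0.45 without L3. IL21R, an interleukin receptor of lymphocytes, had the largest negative one, -0.48 (SE 0.25), with -0.28 without L9 and -0.65 without L5. IL22RA1, through which IL-22 reaches hepatocytes, read 4.26, 3.83, 3.91 and 3.92 in the LN group and 4.59, 4.70, 4.27 and 4.16 in the HN group. L5 lay above L10, and the other LN fetuses lay below every HN fetus. The difference was -0.45 (SE 0.16, p = 0.0571 by exact permutation, adjusted p = 0.760 by limma), and it was -0.07 with normexp background correction and -0.66 with scaling to the 75th percentile. Its unadjusted limma p was no longer past 0.05 with normexp or without L6, L8, L9, L1 or L2.

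JAK1, a kinase of the IL-6 and interferon receptors, read 12.52, 12.60, 12.33 and 12.42 in the LN group and 12.31, 12.31, 12.28 and 12.30 in the HN group. The groups did not overlap, though L8 lay just above the highest HN fetuses. The difference was 0.17 (SE 0.11, p = 0.0286 by exact permutation, adjusted p = 0.823 by limma). Its 4 detected probes ran from -0.20 to 0.17, and their mean differed by 0.03. TYK2, the other Janus kinase measured, differed by -0.41 (SE 0.32, p = 0.286 by exact permutation, adjusted p = 0.853 by limma), with L6 and L9 at 11.48 and 11.47 and the other fetuses at 11.96 or above. Leaving out 1 fetus moved it between -0.61 (without L5) and -0.22 (without L9).

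Beside the STAT genes described above, STAT6, the factor of IL-4 signalling, differed by -0.30 (SE 0.18), and it did not pass the test. STAT4 differed by -0.10 and STAT2 by 0.07, and both changed sign in at least 1 alternative. In the SOCS family 5 of 6 genes with a probe were detected. SOCS4 differed by 0.41 (SE 0.20, p = 0.143 by exact permutation, adjusted p = 0.787 by limma), but by 0.15 with normexp and 0.22 with scaling to the 75th percentile, where CISH differed by 0.38 and 0.43. In the same family SOCS5 differed by 0.03 and SOCS7 by -0.20, the latter by -0.10 without L8, -0.32 without L9 and -0.43 with scaling to the 75th percentile.

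Of 17 detected regulators, STAM, an adaptor of cytokine receptor signalling and sorting, read 6.60, 6.50, 6.66 and 6.39 in the LN group and 6.32, 6.27, 6.32 and 6.19 in the HN group. Every LN fetus lay above every HN fetus. The difference was 0.26 (SE 0.11, p = 0.0286 by exact permutation, adjusted p = 0.785 by limma), and its other probe gave 0.24. With scaling to the 75th percentile it was 0.14, no longer past an unadjusted p of 0.05, and that call was also lost with slide position as a block, as the mean over probes, with trend and robust settings, and without any single fetus other than L9. SH2B3, an adaptor that restrains cytokine receptors, differed by -0.35, but its mean over probes by 0.06. PIAS4, which modifies STAT proteins, differed by 0.19 and by -0.01 as the mean over probes. GAB1, a docking protein, differed by -0.22, or by -0.10 without L8.

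**Figure D4:**
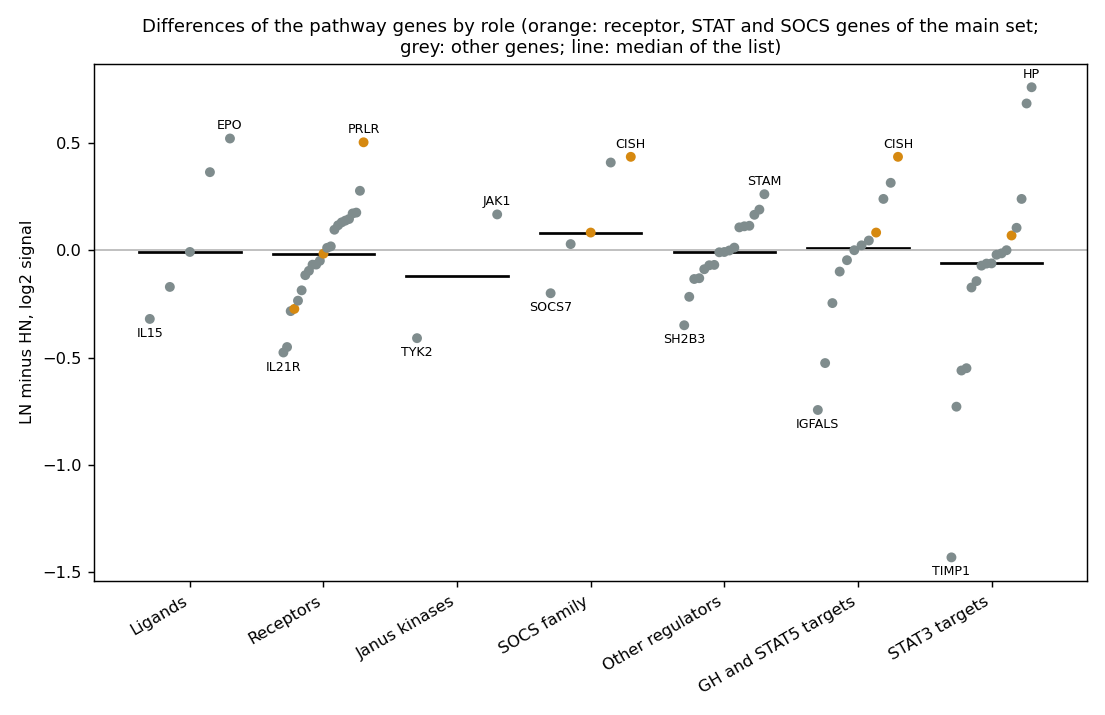
LN minus HN difference in log2 signal (vertical axis) of the detected genes of the route other than the STAT list, grouped by role; orange points are the members, grey points other genes and black lines the median of each list. Medians lie between -0.12 and 0.08, and TIMP1 at -1.43 is the lowest point.

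Targets of the route showed no common direction. Of 12 detected genes listed as targets of growth hormone and STAT5, 7 had a higher and 5 a lower mean in LN, with a median of 0.01. The members SOCS2 and CISH, both higher in LN, are among the 12. IGF1 (NM_001077828), the growth factor that the liver secretes under growth hormone, read 9.53, 8.95, 9.70 and 9.57 in the LN group and 9.68, 9.39, 10.20 and 10.59 in the HN group. L3 and L10 lay above every LN fetus, and L1 and L2 lay among the LN fetuses. The LN mean was lower by 0.53 (a difference of -0.53, SE 0.28, 95% interval -1.15 to 0.10, p = 0.229 by exact permutation, adjusted p = 0.792 by limma). Its other probes gave -0.58 and -0.50, and leaving out 1 fetus moved it between -0.72 and -0.32. With slide position as a block, and without L2, it passed an unadjusted limma p of 0.05 but no adjusted one.

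IGFALS (NM_001075963), which holds IGF1 in the circulating complex, read 5.56, 3.46, 6.50 and 4.76 in the LN group and 6.42, 5.85, 4.32 and 6.65 in the HN group. L6 and L3 were the lowest, 1 from each group. The difference was -0.74 (SE 0.69, p = 0.400 by exact permutation, adjusted p = 0.878 by limma), and it was -0.21 without L6, -1.24 without L3 and -0.25 with normexp. IGFBP3, the binding protein of the same complex, differed by 0.02. CDKN1A, a cell cycle inhibitor, differed by 0.31 (SE 0.15, p = 0.0857 by exact permutation, adjusted p = 0.785 by limma), and its other probe gave 0.07. Across 16 relations of the 8 members with IGF1 and IGFALS, the lowest adjusted p of r was 0.361.

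Of 17 detected genes listed as STAT3 targets, 6 had a higher and 11 a lower mean in LN, with a median of -0.06. The member STAT3, itself higher in LN, is among the 17. JUNB, an immediate early transcription factor, read 11.01, 11.17, 12.58 and 11.92 in the LN group and 10.98, 11.24, 10.47 and 11.25 in the HN group. L8 and L9 lay above every HN fetus, and the difference was 0.68 (SE 0.35, p = 0.229 by exact permutation, adjusted p = 0.788 by limma), or 0.38 without L8. The acute phase genes went both ways, with HP (haptoglobin) at 0.76 (SE 0.60) and LBP, which binds bacterial lipopolysaccharide, at -0.73 (SE 0.44). Leaving out 1 fetus moved HP between 0.30 (without L1) and 1.21 (without L3) and LBP between -1.05 (without L6) and -0.44 (without L5), and HP was 0.38 with normexp. TIMP1, a protease inhibitor, read 5.59 in L5 and between 10.14 and 11.30 in the other 7 fetuses. Its difference of -1.43 (SE 1.02, p = 0.257 by exact permutation, adjusted p = 0.835 by limma) became -0.23 without L5.

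**Figure D5:**
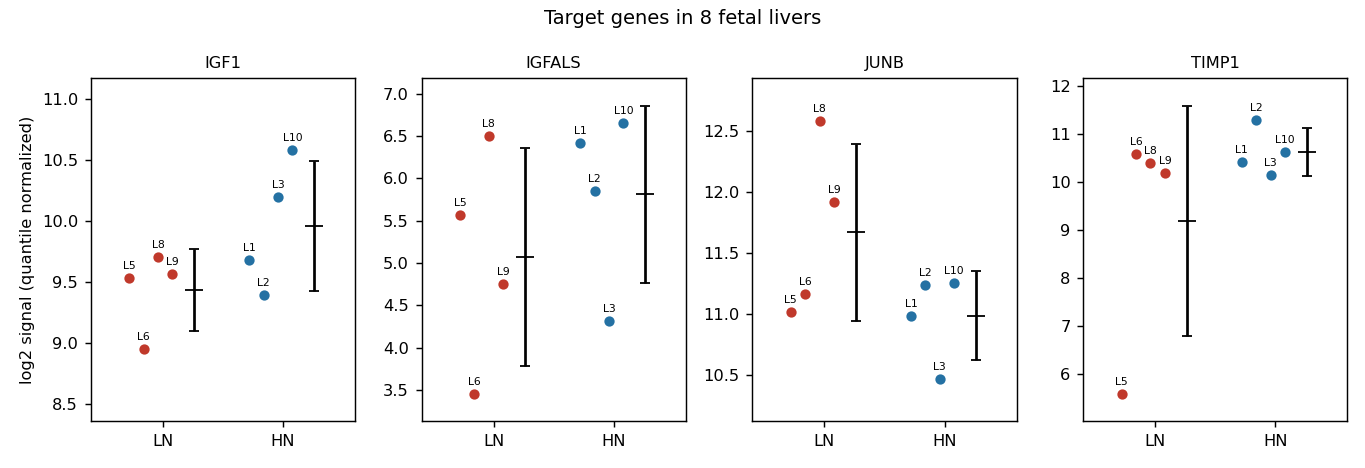
Quantile-normalized log2 signal (vertical axis) of 4 target genes in the LN and HN groups; each point is 1 fetus with its label, and the bar is the mean ± SD of 4 fetuses. IGF1 is 8.95 to 9.70 in LN and 9.39 to 10.59 in HN, and the low LN point of TIMP1 is L5 at 5.59.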

How the data were processed

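Liver RNA of 8 fetuses was hybridised in 1 colour to Agilent bovine arrays. The authors deposited scanner output of Feature Extraction 11.0.1.1, with each spot's intensity already background-subtracted but not normalized between arrays, and a table of log2 values of 31068 probes. The probes of that deposited log2 table are those well above background on every array, and its values were matched to within 0.0423 by quantile normalizing their intensities. The study's methods name quantile normalization and no test for the arrays.

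Here control spots and 16 probes with an outlier mark were dropped, log2 signals of repeated spots were averaged, and arrays were quantile normalized over 43637 probes, of which 33440 were detected. RefSeq accessions of 26740 probes were matched to 12603 genes (assembly ARS-UCD2.0). The array was designed on UMD 3.1, so no coordinates are given. The comparison of LN with HN used the limma package, version 3.58.1, under R 4.3.3, with 2-sided p-values adjusted by Benjamini-Hochberg over detected probes, and its functions were tested on simulated data. Exact permutation tests were 2-sided, over the 35 distinct divisions of 8 fetuses into 4 and 4, or over all pairings for correlations. By limma, 0 of 33440 probes passed an adjusted p of 0.05 (lowest 0.634), against 2113 at an unadjusted p of 0.05, and a 2-sided Student's test per probe, which the methods name for metabolites and not for arrays, gave 0 and 2285.

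The members and lists were chosen with earlier results of these data known. Genes named are the members, Janus kinases and STATs, IGF1, and in each list the genes without overlap and the 2 with the largest difference in each direction, with 5 genes most like GHR. Some values under this rule are not reported here, though counts include them. THPO, SOCS5 and IGFBP3 were named after their values were seen. The brightness of an array, correlations before normalization between arrays and those of LEPR with the other STAT5A probes were added after seeing the data.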

Additional observations from a re-analysis of the deposited data

Results flagged for a closer look

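In 2 of 68 sets of 4 fetuses tested, 1 fetus stood apart from the others by more than the 95% critical value of Dixon's ratio, and chance gives about 1 in 20. TIMP1 read 5.59 in LN fetus L5, against 10.18 to 10.59 in the other LN fetuses. IL15 read 3.67 in LN fetus L6, against 2.61 to 2.74 in the other LN fetuses, and it was well above background in 1 of the 4.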

How the results depend on the processing

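In 18 alternatives (scaling, background correction, the authors' table, filters, other fits, slide position as a block, 1 fetus left out), 589 of 606 values of 34 named genes kept their direction and 17, in 7 genes, reversed. The reversals other than by leaving out a fetus were GHR at 0.014 with normexp, STAT3 at -0.098, PIAS4 at -0.012, SH2B3 at 0.063 and STAT2 at -0.021 as means over probes, and STAT3 at -0.015 with array brightness as a covariate. With a fetus left out, GHR ran from -0.17 to 0.27, STAT3 from -0.17 to 0.36, SOCS2 from -0.025 to 0.20, STAT2 from -0.015 to 0.14 and STAT4 from -0.20 to 0.036. The cause was not tested. Other genes of the route at an unadjusted limma p of 0.05 numbered 2, but 5 with scaling to the 75th percentile, 1 as means over probes, 7 with brightness as a covariate, and 0 (without L1) to 5 (without L6 or L2) with a fetus left out. All detected genes at that p numbered 657, but 1108 with brightness and 408 (without L10) to 843 with a fetus left out. With a fetus left out, 0 to 1 probes passed an adjusted p of 0.05 (1 without L6), members at an unadjusted p of 0.05 numbered 0 to 1 (CISH, without L5 or L1), members without overlap 0 to 1 and members more than 0.32 apart 1 to 3. Scaling to the 75th percentile moved the median difference of all detected probes from 0.0014 to -0.061. No paired analysis was possible because the groups share no fetus numbers, though slide position, with 1 LN and 1 HN array in each, served as a block. Named genes also passed an unadjusted p of 0.05 in alternatives, none of them past an adjusted p, such as CDKN1A (0.27 with normexp), IL21R (-0.62) and STAT6 (-0.49) with scaling to the 75th percentile, and SH2B3 (-0.42) and SOCS4 (0.48) with brightness. Slide as a block was not run, since each slide holds 1 group. With normexp, GH1 differed by 0.046, IL15 by -0.051, IL21R by -0.21, SOCS7 by -0.0084 and STAT6 by -0.11. Signal near background limits SOCS3, GH1, IL15 and the dim probes of LEPR and STAT5A.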
